A study of Mus musculus with 13 samples.

Results

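Intergenic piRNA loci are stretches of genome between genes that give rise to long precursor transcripts of PIWI-interacting RNAs (piRNAs). They were described here in 2 mouse tumour cell lines, B16 melanoma and KP lung adenocarcinoma (LUAD). The loci were taken by name: their names begin with a chromosome and a cytogenetic band, as in 14-qA3-284, and end in a number that marks the isoform. Each deposited table held 217 such isoforms of 100 loci. Signal above 0 in at least 1 of the 13 libraries was found for 163 isoforms of 90 loci, among 889 elements with signal in all, and these 90 loci were described. The other 10 loci were at 0 in every library. Overlapping isoforms share reads, so each locus was read through its best-covered isoform in each table.

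The B16 groups were Tdg Trp53 double knockout (DKO), Tdg knockout (Tdg KO), Trp53 knockout (Trp53 KO) and wild type (WT), with 2 libraries each. The KP groups were Tdg KO with 3 libraries and WT with 2. Tdg encodes thymine DNA glycosylase, which takes part in active DNA demethylation, and Trp53 encodes the tumour suppressor p53. The sources used here do not say what WT means for Trp53 in KP. Ribosomal RNA was removed before directional library preparation, so reads from the strand of the precursor (sense) and from the opposite strand (antisense) were kept apart. The labels do not say how the knockouts were made, whether a line was a clone, or whether libraries of a group came from separate cultures. The p-values therefore measure the spread between these libraries, which may be technical. The tables hold repeats and piRNA loci rather than protein-coding genes, so neither the knockouts nor the cell types were checked against marker transcripts here.

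In the mouse testis, piRNA precursors from such loci are transcribed by RNA polymerase II, many of them under the transcription factor A-MYB as spermatocytes enter pachytene. They are cut into short piRNAs that guide PIWI proteins. The precursors are strand-specific transcripts, but their loci also hold copies of transposable elements. A read from a transposon that is transcribed elsewhere in the genome can match such a copy. The sources used here do not say how reads that match several places were treated. The values are mean read coverage per base of the isoform, so they are already per length, and all levels below are on that scale. Long RNA was measured, not piRNAs.

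Coverage was found over the loci in every library, in both tumour lines. Between 83 and 88 loci had signal in the DKO libraries, against 72 and 74 in the Trp53 KO libraries, 77 and 84 in the Tdg KO libraries, and 74 and 75 in the WT libraries of B16. In KP, 74 to 75 loci had signal in Tdg KO libraries and 68 and 73 in WT libraries. The 90 loci lie on 18 chromosomes and in 50 bands. Chromosome 10 held 11 of them, chromosome 7 held 9 and chromosome 6 held 7, and band 10-qC1 alone held 5. No locus with signal was named for chromosome 16, X or Y. In all 13 libraries, 60 loci had signal on at least 1 strand and 49 on both. The best covered of the 60 were 14-qA3-284, 10-qC1-2617 and 13-qA5-464. Signal in B16 only was found for 11 loci and in KP only for 0.

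Most loci were thinly covered, and a few held most of the signal. In B16, 14 loci averaged under 0.1 on their better-covered strand, 31 lay from 0.1 to 1, 28 from 1 to 10, 13 from 10 to 100 and 4 at 100 or more. In KP the same classes held 15, 27, 32, 5 and 0 loci. The median locus stood at 1.04 in B16 and 0.858 in KP. The smallest length that fits the steps between values was found for 138 of 138 isoforms with 6 or more nonzero values. These lengths ran from 122 to 69605 bases, and the true length can be a multiple of the one found. Over the first-listed isoform of each locus, where its length was recovered, the median was 15074 bases. One read fragment covered about 299 bases. Over an isoform of median length, a coverage of 0.1 is thus only a few fragments.

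The 4 best-covered locus strands in B16 were 14-qA3-284.2 sense, 10-qC1-2617.1 antisense, 13-qA5-464.3 sense and 17-qA3.3-26735.2 antisense. In DKO libraries these 4 strands carried 42.7% and 45.7% of all coverage summed over the loci. In the other 6 B16 libraries they carried 66.5% to 84.9%, so the groups did not overlap. In KP the 4 best-covered strands of each library were a different set from these 4. That set carried 19.0%, 33.5% and 39.3% in Tdg KO libraries and 36.3% and 34.9% in WT libraries.

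Coverage of 14-qA3-284.2 sense was 276 and 215 in DKO libraries, 370 and 286 in Tdg KO libraries, 960 and 607 in Trp53 KO libraries, and 823 and 382 in WT libraries. Both DKO values lay below all 6 others. Its antisense strand had 17.4 and 15.2 in DKO libraries, 12.9 and 10.6 in Tdg KO libraries, 11.1 and 11.5 in Trp53 KO libraries, and 13.5 and 10.8 in WT libraries, so that DKO was the highest group on that strand. In KP the sense strand reached only 3.15, 13.2 and 13.7 in Tdg KO libraries and 7.49 and 13.9 in WT libraries.

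Coverage of 10-qC1-2617.1 antisense ran the same way, with 256 and 204 in DKO, 338 and 274 in Tdg KO, 875 and 566 in Trp53 KO, and 755 and 348 in WT libraries. For 13-qA5-464.3 sense the values were 245 and 175 in DKO, 292 and 224 in Tdg KO, 697 and 490 in Trp53 KO, and 640 and 296 in WT libraries. The fourth strand, 17-qA3.3-26735.2 antisense, had 109 and 71.2 in DKO, 110 and 89.1 in Tdg KO, 255 and 185 in Trp53 KO, and 238 and 113 in WT libraries. These 4 loci lie on 4 chromosomes, yet any pair of the 4 strands correlated across the 13 libraries at Pearson's r = 0.998 to 1.000 on the log2 scale. All 4 followed the internal sequence of the intracisternal A particle (IAP) IAPLTR1a_I_MM, an endogenous retrovirus, at r = 0.998 to 0.999. The coverage of that IAP sequence, on its sense strand, was 1983 and 1353 in DKO, 2143 and 1731 in Tdg KO, 4902 and 3114 in Trp53 KO, and 4042 and 2143 in WT libraries. The points of these correlations share libraries and depth, and shared reads between locus and repeat were not tested. They also pool both lines, whose tables have no common scaling. A difference in level between the lines therefore enters these r. At 14-qA3-284.2 sense the WT means were 602 in B16 and 10.7 in KP.

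**Figure D1:**
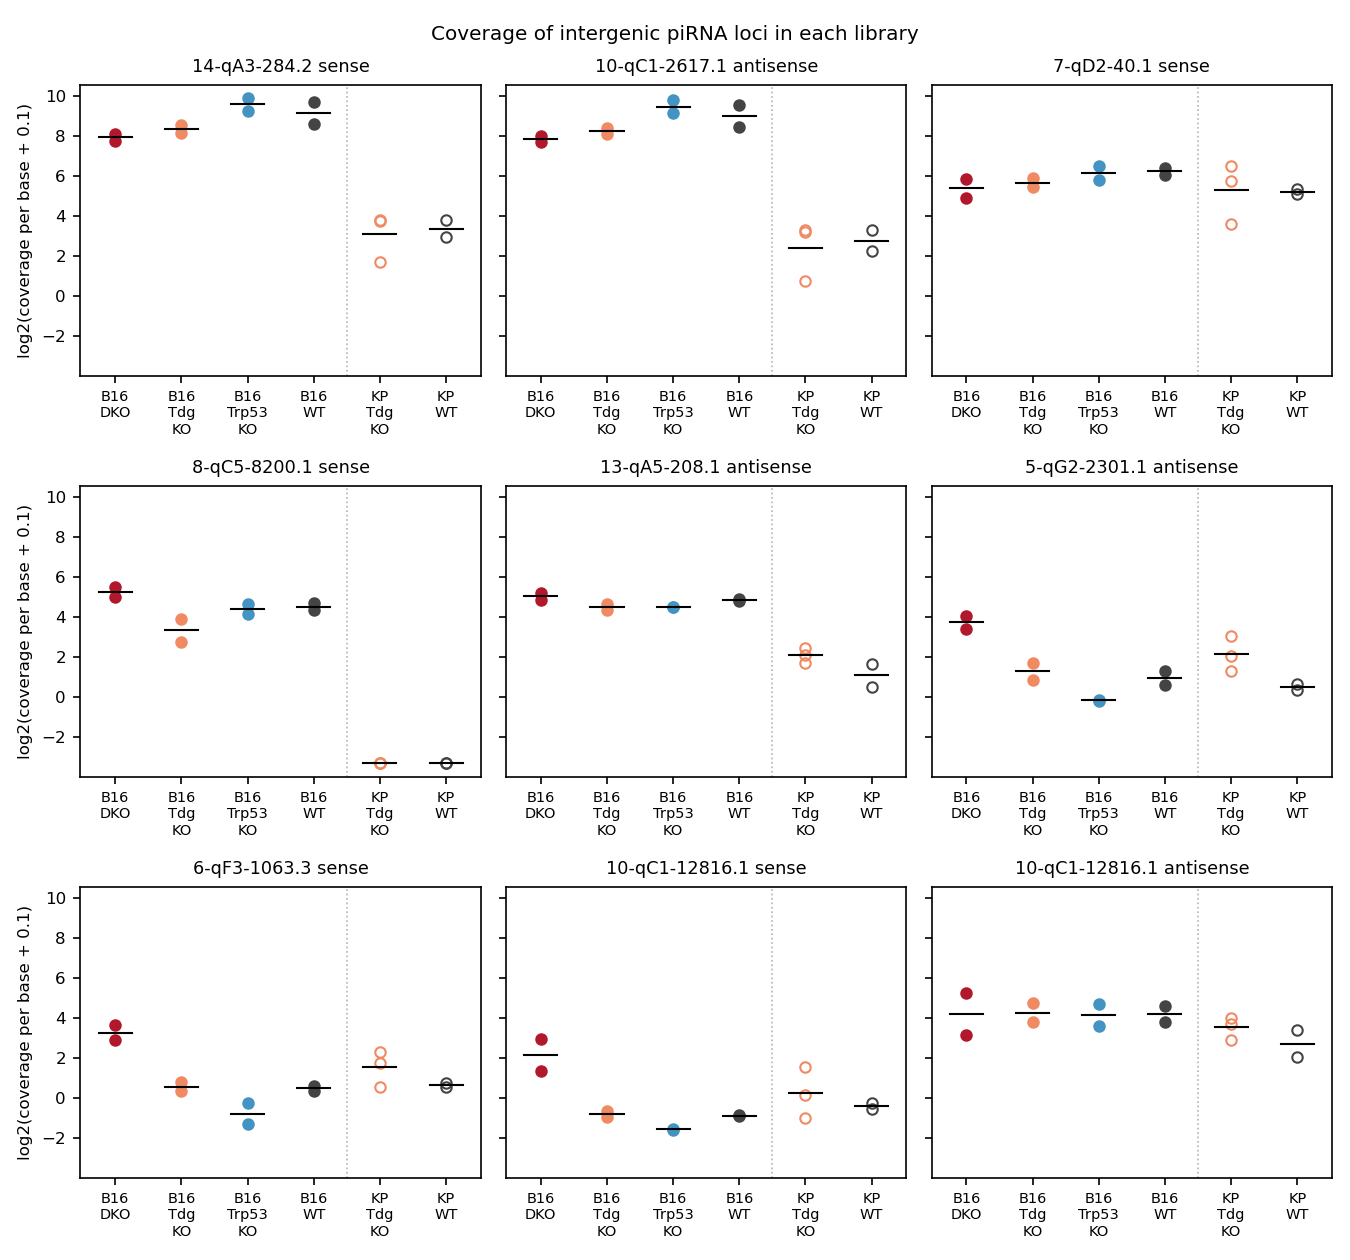
Coverage of 8 intergenic piRNA loci in each library, 1 panel per locus strand (both strands for 10-qC1-12816.1). The y axis is log2 of coverage per base plus 0.1. Points are libraries (filled B16, open KP) and bars are group means on that scale (n = 2 per B16 group, 3 for KP Tdg KO, 2 for KP WT). Among the B16 libraries, DKO lies lowest for 14-qA3-284.2 and 10-qC1-2617.1 and highest for 5-qG2-2301.1, 6-qF3-1063.3 and 10-qC1-12816.1 sense. At 8-qC5-8200.1 all 5 KP libraries are at 0.

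The same comparison was made for every locus strand that averaged 1 or more across the 13 libraries. Each of the 78 such strands was paired with the repeat strand whose profile it followed most closely, out of 546 repeat strands. The median of the best r was 0.978, the lowest was 0.661, and 33 strands reached 0.98. With an r of at least 0.95, 17 strands of 10 loci followed a LINE-1 (L1) retrotransposon, 15 strands of 10 loci followed a B1 element, 11 strands of 8 loci followed an endogenous retrovirus of class ERV3, and 9 strands of 6 loci followed an IAP. One strand followed the B2 element and 2 followed another long terminal repeat element. B1 and B2 are short interspersed repeats, and B1 derives from the 7SL RNA of the signal recognition particle. The other 23 strands had no repeat at that level. Since each r pools both lines, a shared difference in level between the lines can place a strand in a group.

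Among the L1-like strands, 13-qA5-208.1 antisense had the highest coverage, with 28.8 and 37.0 in DKO libraries, 25.2 and 20.0 in Tdg KO, 22.2 and 22.2 in Trp53 KO, and 27.7 and 29.4 in WT. It followed L1_MM antisense at r = 1.000, and 3-qA2-617.1 sense followed L1MdN_I antisense at r = 0.999. The isoform 3-qA2-617.1, one of the longest at 67058 bases, had 22.5 and 28.8 in DKO libraries, 18.9 and 15.1 in Tdg KO, 16.2 and 16.8 in Trp53 KO, and 20.9 and 21.4 in WT. The DKO and WT ranges overlapped at 13-qA5-208.1 and not at 3-qA2-617.1. Of the ERV3-like strands, 10-qB5.1-221.1 sense followed MERVL antisense at r = 0.982. Its coverage was 29.4 and 27.4 in DKO libraries, 16.3 and 14.7 in Tdg KO, 15.1 and 15.2 in Trp53 KO, and 18.0 and 17.8 in WT, so the DKO values lay above the other 6. Both 3-qA2-617.1 and 10-qB5.1-221.1 were named after their values were seen.

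**Figure D2:**
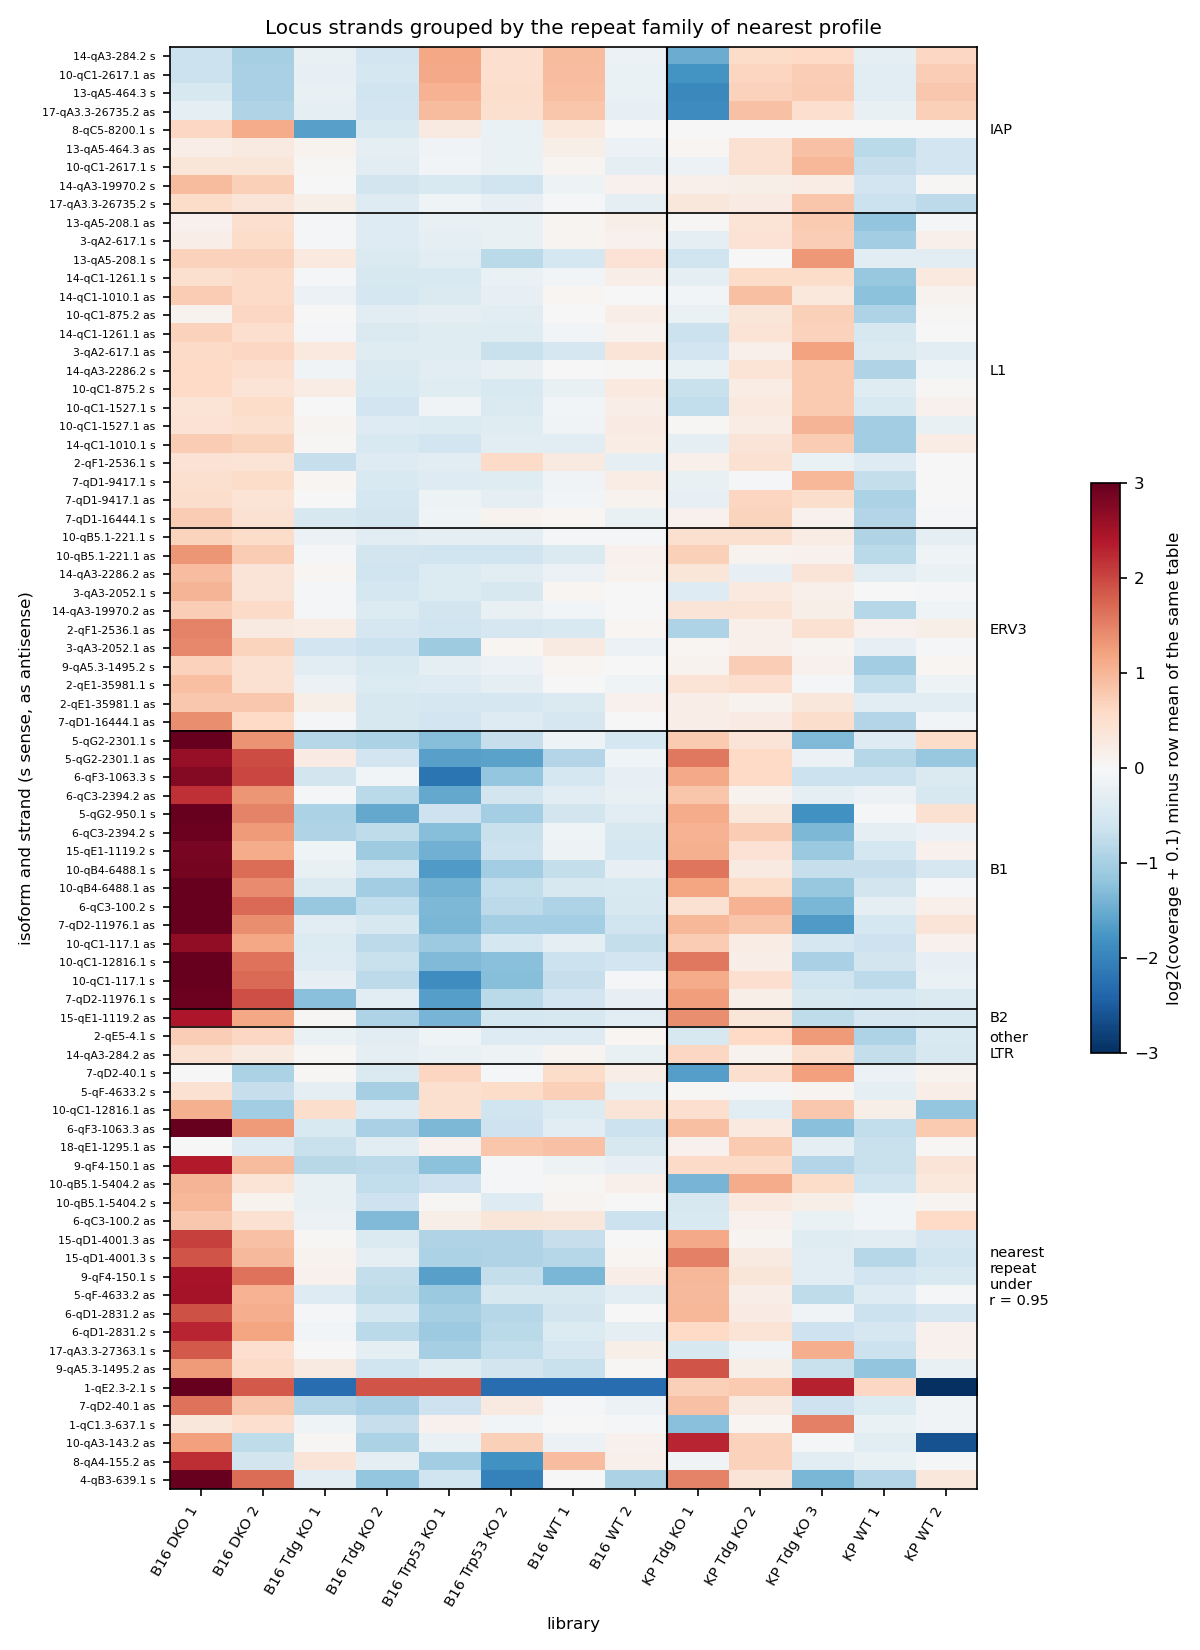
Coverage of the 78 locus strands with a mean of at least 1, as log2(coverage + 0.1) minus the mean of that row over the libraries of the same table (colour, from -3 to 3). Columns are the 8 B16 and 5 KP libraries, and rows are grouped by the family of the repeat with the most similar profile, with rows under r = 0.95 at the bottom. The B1 block is highest in both DKO libraries. In 4 of the IAP rows the lowest B16 library is DKO replicate 2 and the lowest KP library is Tdg KO replicate 1.

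Several well-covered loci had strands with a lower best r, again taken across both lines. Sense coverage of 7-qD2-40.1 was 57.4 and 30.0 in DKO libraries, 59.3 and 43.0 in Tdg KO, 89.8 and 56.3 in Trp53 KO, and 84.2 and 66.4 in WT. This locus was also the best covered in KP, with 11.9, 54.2 and 88.7 in Tdg KO libraries and 33.8 and 40.7 in WT libraries. Its closest repeat, RLTR13C1 sense, reached r = 0.811 only, and 95.6% of its B16 coverage was sense. Sense coverage of 5-qF-4633.2 was 29.9 and 13.4 in DKO, 17.7 and 10.8 in Tdg KO, 30.6 and 31.9 in Trp53 KO, and 35.7 and 18.7 in WT libraries. In KP it lay between 14.1 and 19.7 in all 5 libraries, a narrower range than in B16. Its best r with any repeat, 0.661, was the lowest of the 78 strands.

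Antisense coverage of 18-qE1-1295.1 was 4.35 and 3.27 in DKO, 2.71 and 3.43 in Tdg KO, 4.78 and 7.81 in Trp53 KO, and 7.98 and 3.08 in WT libraries of B16. In KP it was 8.72, 13.8 and 6.55 in Tdg KO libraries and 4.98 and 8.24 in WT libraries. Its best r with a repeat was 0.678. The DKO values lay below both Trp53 KO values and within the WT range, and the KP groups overlapped. The antisense strand of 10-qC1-12816.1, with r = 0.786, had 38.2 and 8.89 in DKO, 26.3 and 14.0 in Tdg KO, 25.7 and 11.99 in Trp53 KO, and 13.9 and 23.8 in WT libraries. Here the DKO libraries enclosed the other 6. In KP it had 12.99, 7.23 and 15.9 in Tdg KO libraries and 10.2 and 4.01 in WT libraries. The sense strand of the same locus followed B1_Mus1 antisense at r = 0.98, so the 2 strands of 1 locus had different profiles.

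The strands of a locus were often covered alike. Of 45 loci with a mean of at least 1 on a strand in B16, 23 had strands within 2-fold of each other, 8 had over 4-fold more sense and 7 over 4-fold more antisense coverage, and 7 lay between. In KP the 37 such loci fell into 20, 6, 5 and 6. Loci were ranked by the log2 ratio of the strand means with 0.1 added to each, which places a thinly covered locus lower than its percentage would. By that ratio the largest sense excess in B16 was at 8-qC5-8200.1, where 99.1% of coverage was sense in a mean over 8 libraries. It was followed by 2-qE5-4.1 with 99.1% and 13-qA5-464.3 with 97.5%. By the same ratio the largest antisense excess was at 10-qC1-2617.1, with 1.74% sense, followed by 17-qA3.3-26735.2 with 2.44% and 8-qA4-155.2 with no sense coverage. Each of these 6 loci leaned the same way in 8 of 8 B16 libraries. The sense strand of 2-qE5-4.1 had 25.6 and 23.6 in DKO, 13.3 and 12.3 in Tdg KO, 14.1 and 11.8 in Trp53 KO, and 11.7 and 15.9 in WT libraries, the DKO values being highest. Its antisense strand stayed at or under 0.333.

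The effect of losing Tdg in cells that lack p53 is read from DKO against Trp53 KO. Differences were tested with limma on log2(coverage + 0.1) across all 1246 tested features of the B16 table, where a feature is 1 strand of 1 element whose coverage averaged 0.1 or more in that table. Changes below are log2 differences on that scale, which understates changes at low coverage, with their standard errors and Benjamini-Hochberg adjusted p-values at a threshold of 0.05. Of 180 locus strands, 136 from 76 loci passed the filter, which a strand high only in DKO could also pass. Outside DKO, 19 of the 136 averaged under 0.1, so that DKO carried them past the filter, and 7 of these are among the rises below. In DKO, 54 strands of 32 loci rose and 3 strands of 3 loci fell. On both strands 22 loci rose, and the share of all elements that did so is not given. The 54 are 39.7% of the strands tested, against 29.5% of all features that rose, and the 3 are 2.21%, against 1.52%. The rises ran from 0.90 to 4.05 with a median of 3.01. The median change of all 136 strands was 1.64, beside 1.67 over all features, so the loci as a list moved with the table. For genic piRNA loci 37 of 105 strands rose and 5 fell, and for repeat sequences 208 of 838 rose and 1 fell.

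The values are not scaled to library size, and values in the DKO libraries were high over most elements. Their median ratios to the mean library were 1.76 and 1.37, against 0.614 and 0.522 in Trp53 KO, 0.863 and 0.646 in Tdg KO, and 0.688 and 0.935 in WT libraries. The 7SL sequence alone took 85.3% to 95.4% of the coverage of a B16 library, with 95.4% in DKO replicate 1 and 85.3% in DKO replicate 2, the highest and the lowest of the 8 libraries. With libraries scaled by these ratios, 3 strands rose and 5 fell (2.21% and 3.68%), where 6.18% and 3.93% of all features did. With each library centred on its median, 1 rose and 11 fell (0.735% and 8.09%), where 2.09% and 8.83% of all features did. With quantile normalization, 1 rose and 6 fell (0.735% and 4.41%), where 3.05% and 4.17% of all features did. The median of all features was then 0.60, -0.38 and -0.10, and that of the locus strands 0.70, -0.41 and -0.43. Only 5-qG2-2301.1 antisense rose in all 4 fits, and 14-qA3-284.2 sense, 10-qC1-2617.1 antisense and 13-qA5-464.3 sense fell in all 4. The share of all features that held in all 4 fits is not given, so these counts cannot be read as particular to the loci. The counts also rested on single libraries: 0 strands were called without either Trp53 KO library, 24 rose without DKO replicate 1 (11.5% of all features then rose), 69 rose without DKO replicate 2 (29.3% of all features), and 0 fell when any 1 library of the DKO, Tdg KO or Trp53 KO groups was left out. In bulk RNA, a change in the share of cells with a transcript and a change in RNA per cell cannot be told apart.

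**Figure D3:**
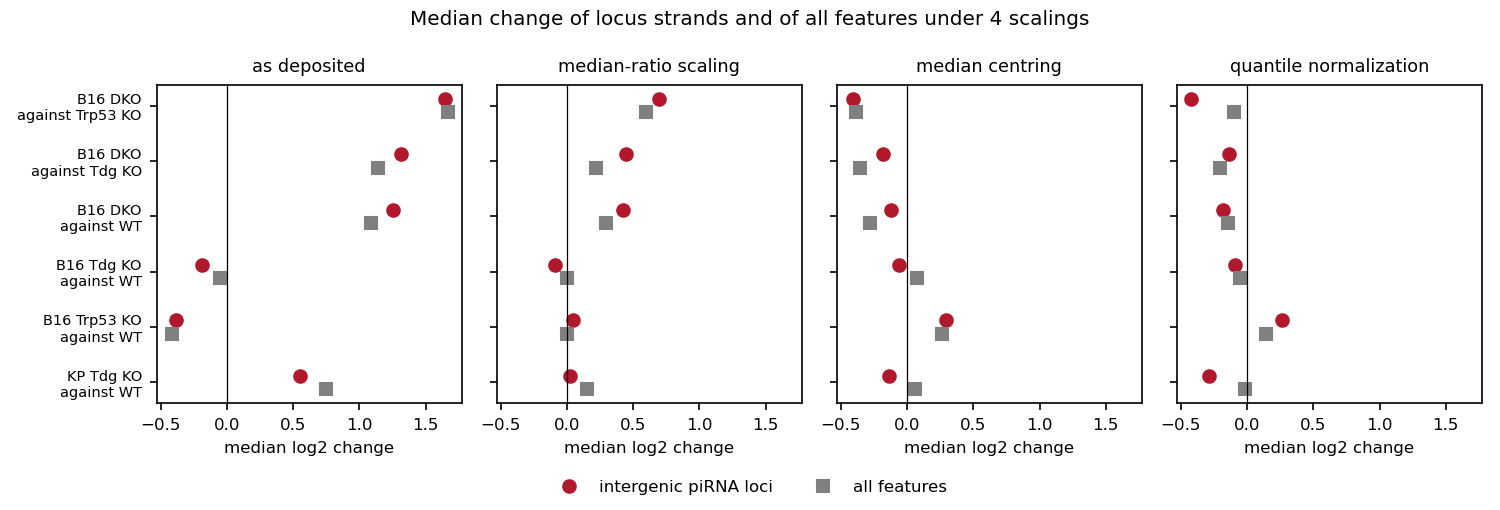
Median log2 change of the tested locus strands (circles; 136 in B16, 117 in KP) and of all features (squares; 1246 in B16, 984 in KP) for 6 comparisons, in 1 panel for each of 4 ways of scaling the libraries. As deposited, the medians of DKO against Trp53 KO were 1.64 and 1.67; after median centring they were -0.41 and -0.38.

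The 3 falls were the IAP-like strands described first. The change was -1.65 ± 0.44 (SE) for 14-qA3-284.2 sense (adjusted p = 0.0356), -1.62 ± 0.43 for 10-qC1-2617.1 antisense (adjusted p = 0.0355) and -1.50 ± 0.44 for 13-qA5-464.3 sense (adjusted p = 0.0440). The change of 17-qA3.3-26735.2 antisense was -1.30 ± 0.43, with an adjusted p of 0.0604, and it did not pass as deposited. In all 4 strands both DKO values lay below both Trp53 KO values. Since all 4 have nearly the same profile, they are not separate observations. The opposite strands of these loci had changes of 0.39 to 0.64, none of which passed.

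Most of the largest rises were on strands that followed B1. Coverage of 6-qF3-1063.3 sense was 12.2 and 7.29 in DKO libraries, against 0.301 and 0.725 in Trp53 KO libraries, 1.15 and 1.62 in Tdg KO libraries, and 1.17 and 1.44 in WT libraries. Its change against Trp53 KO was 4.05 ± 0.58 (adjusted p = 0.0154), and all 6 other libraries lay below both DKO libraries. The antisense strand rose as well, by 3.19 ± 0.66 (adjusted p = 0.0209), with 38.7 and 10.96 in DKO against 1.67 and 2.83 in Trp53 KO libraries.

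Coverage of 5-qG2-2301.1 antisense was 16.5 and 10.4 in DKO, 3.12 and 1.73 in Tdg KO, 0.783 and 0.794 in Trp53 KO, and 1.39 and 2.39 in WT libraries. The change against Trp53 KO was 3.90 ± 0.52 (adjusted p = 0.0154), and it was 2.51 after median-ratio scaling (adjusted p = 0.0285), 1.84 after median centring (adjusted p = 0.0385) and 2.27 after quantile normalization (adjusted p = 0.0334). This isoform is 3868 bases long. Its sense strand had 31.1 and 9.20 in DKO, 1.91 and 1.79 in Tdg KO, 1.41 and 2.17 in Trp53 KO, and 3.21 and 2.44 in WT libraries, and it rose by 3.20 ± 0.63 as deposited (adjusted p = 0.0197).

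The other locus named for band 5-qG2, 5-qG2-950.1, had 17.4 and 4.19 on the sense strand in DKO, 0.690 and 0.423 in Tdg KO, 0.881 and 0.645 in Trp53 KO, and 0.944 and 1.10 in WT libraries. Its antisense strand, with 1.72 and 2.97 in DKO against 0 and 0.123 in Trp53 KO libraries, rested on fewer than 2 fragments in the Trp53 KO group. Both strands passed the test (adjusted p = 0.0226 sense and 0.0197 antisense). For 10-qC1-117.1 sense, coverage was 7.42 and 2.57 in DKO, 0.588 and 0.380 in Tdg KO, 0.126 and 0.240 in Trp53 KO, and 0.411 and 0.696 in WT libraries, a change of 4.01 ± 0.72 against Trp53 KO (adjusted p = 0.0177).

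Of the 10 largest rises, 7 were on strands that followed B1 at an r of at least 0.95. One, 4-qB3-639.1 sense, was closest to a B1 element at r = 0.943, and 2, 5-qG2-950.1 antisense and 8-qA2-343.1 sense, were too thinly covered to be compared with repeats. For 4-qB3-639.1 sense the values were 6.91 and 1.96 in DKO against 0.328 and 0.0595 in Trp53 KO libraries, a change of 3.86 ± 0.90. For 6-qC3-100.2 sense they were 13.02 and 3.17 in DKO against 0.300 and 0.490 in Trp53 KO libraries, a change of 3.75 ± 0.79. The changes of 10-qC1-12816.1 sense, 7-qD2-11976.1 sense and 10-qB4-6488.1 sense were 3.70, 3.67 and 3.64. For 8-qA2-343.1 sense, coverage was 2.16 and 0.699 in DKO, 0.242 and 0 in Tdg KO, and 0 in both Trp53 KO and both WT libraries. It averaged 0.0403 over the 6 other libraries and passed the filter only through DKO, so its place among the rises was set by that selection, and no test or fold is given. In each of these 6 strands DKO replicate 1 was higher than DKO replicate 2.

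Read by the repeat they followed at r of at least 0.95, all 15 B1-like strands rose, with changes from 2.72 to 4.05 and a median of 3.59. The B2-like strand also rose. Among the ERV3-like strands 2 of 11 rose, with a median change of 1.15, and among the L1-like strands 3 of 17 rose, with a median of 0.84. Of the 9 IAP-like strands, 1 rose and 3 fell, with a median of 0.39. The B1-like strands stayed above 0 in 15 of 15 cases under each of the other 3 scalings, with medians of 2.30, 1.54 and 1.47 after median-ratio scaling, median centring and quantile normalization, but only 3, 1 and 1 of them then passed. The medians of the ERV3-like, L1-like and IAP-like strands turned negative under these 3 scalings, for the L1-like strands to -0.61, -1.21 and -0.46. The grouping used these same libraries, DKO included, so the counts per group are a description and no test. The B1 consensus B1_Mm had a sense coverage of 219 and 141 in DKO, 21.5 and 17.5 in Tdg KO, 6.91 and 5.90 in Trp53 KO, and 18.0 and 36.0 in WT libraries. Its antisense coverage was 769 and 184 in DKO, 33.5 and 32.6 in Tdg KO, 21.2 and 22.3 in Trp53 KO, and 28.7 and 37.4 in WT libraries. Thus B1 coverage moved with the rises at the loci; its part in them was not tested.

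The changes in DKO, as deposited, were also counted by the balance of the strands, which was taken from the WT and Tdg KO libraries, outside this comparison. Balance was the log2 ratio of the strand means with 0.1 added to each, so thinly covered strands can fall within 2-fold. At 10-qC2-545.1 it was 0.98, with no antisense coverage in B16. Of the 136 strands counted, 19 averaged under 0.1 outside DKO and passed the filter only through DKO. Among these 19, 7 are rises counted below. The classes were not tested against each other. Among 82 tested strands within 2-fold of the opposite strand, 44 rose (53.7%) and 0 fell, with a median change of 2.21. Of all features in that class 38.2% rose and 1.45% fell, with a median of 1.72. Among 20 strands with over 4-fold more coverage than the opposite strand, 0 rose and 3 fell, with a median of 0.02. Of all features in that class 11.7% rose and 4.35% fell, with a median of 0.82, and the 3 falls share 1 profile. Among 15 strands with over 4-fold less coverage, 4 rose, with a median of 0.91, against 31.7% of all features. Among the remaining 19, 6 rose, with a median of 2.03, against 26.5% of all features.

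**Figure D4:**
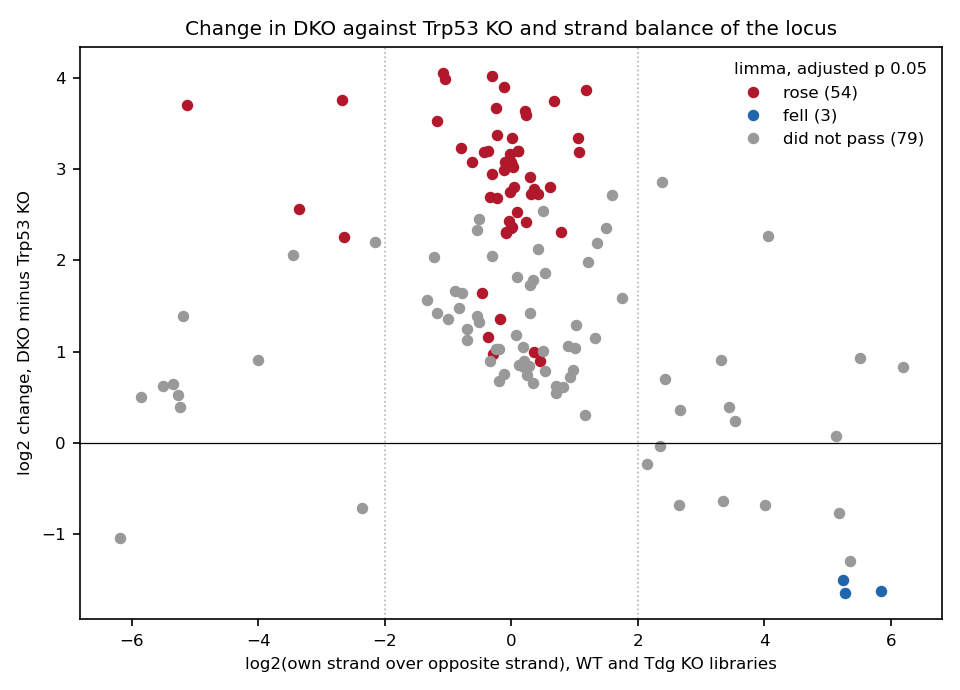
Change of each of the 136 tested locus strands in DKO against Trp53 KO (y axis, log2) against the balance of that strand over the opposite one in the WT and Tdg KO libraries of B16 (x axis, log2). The balance was taken with 0.1 added to each strand mean. Colours give limma's calls at an adjusted p of 0.05 (54 rose, 3 fell, 79 did not pass), and dotted lines mark a 4-fold difference between strands. No strand right of the right-hand line rose, and the 3 falls lie there.

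The ratio of the strands was therefore also fitted, as a choice made after seeing the data, over 730 elements. One locus of 76 passed, where 1.37% of all elements did, so the share of the loci was near that of the table. At 5-qF-4633.2 the log2 ratio of sense to antisense was 1.06 in DKO against 4.26 in Trp53 KO libraries, a difference of -3.20 ± 0.48 (adjusted p = 0.0453, limma). The antisense strand of this locus was at 15.9 and 5.72 in DKO, 2.08 and 1.56 in Tdg KO, 1.21 and 1.94 in Trp53 KO, and 1.94 and 2.16 in WT libraries, and it rose by 2.56 ± 0.59 (adjusted p = 0.0242). Its sense strand had a change of -0.64 ± 0.51, which did not pass (adjusted p = 0.320). At 10-qC1-12816.1 and 14-qA3-284.2 the ratio changed by 3.63 ± 0.70 and -2.17 ± 0.42, both with an adjusted p of 0.0815. A scale factor per library cancels in this ratio apart from the 0.1 added, but 0 loci passed when any 1 library was left out.

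Library by library, both DKO values lay above both Trp53 KO values for 114 of 136 strands, and below them for 6, where 68.9% and 4.57% of all features did so. Both Trp53 KO values lay below both WT values for 67 strands, against 35.2% of all features, and above them for 3, against 3.61%. The low Trp53 KO levels therefore enter the comparison above. In Trp53 KO against WT, 0 of 136 strands rose or fell, beside 0 and 0 of all features. At an unadjusted p under 0.05, limma had 0 strands, beside 16 of 1246 features higher and 65 lower. The median change was -0.39 beside -0.41 over all features. The smallest p was at 6-qF3-1063.3 sense, whose change was -1.28 ± 0.58 (adjusted p = 0.704, limma). Next were 5-qG2-2301.1 antisense, at -1.12 ± 0.52, and 8-qA4-155.2 antisense, at -1.97 ± 0.97, with the same adjusted p. The last had 0.524 and 0.263 in Trp53 KO libraries and 2.36 and 1.32 in WT libraries, and 5.82 and 0.783 in DKO libraries.

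Loss of both genes was also read against Tdg KO and against WT; the 3 comparisons share the DKO libraries. Against Tdg KO, 0 strands passed by limma, where 3.05% of all features rose and 0.0803% fell. At an unadjusted p under 0.05, 75 of 136 strands were higher and 0 lower. Over all 1246 features, 411 were higher and 6 lower at that level. The smallest adjusted p was 0.0501, at 9-qC-10667.1 sense, 5-qG2-950.1 sense and 5-qG2-2301.1 sense, among others. The sense strand of 9-qC-10667.1 had 2.87 and 1.28 in DKO, 0.154 and 0.114 in Tdg KO, 0.109 and 0.134 in Trp53 KO, and 0.230 and 0.266 in WT libraries. Its change was 3.12 ± 0.63 against Tdg KO. With 1 in place of 0.1 added before the logarithm, 23 strands rose against Tdg KO, beside 12.5% of all features. Without DKO replicate 1, 4 rose, beside 4.4% of all features, and without DKO replicate 2, 57 rose, beside 23.2%.

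Against WT, 1 strand rose and 0 fell, where 4.09% of all features rose and 0.0803% fell. The strand was 5-qG2-2301.1 antisense, with a change of 2.78 ± 0.52 (adjusted p = 0.0447, limma). It was no longer called under the other 3 scalings or when any 1 library of the WT, Trp53 KO or Tdg KO groups was left out. With 1 added before the logarithm 6 strands rose, beside 6.1% of all features. Without DKO replicate 1, 4 rose, beside 4.57% of all features, and without DKO replicate 2, 50 rose, beside 20.9%. For 14-qA3-284.2 sense the change against WT was -1.20 ± 0.44 (adjusted p = 0.131), with both DKO values below both WT values.

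Loss of Tdg with p53 intact is read from Tdg KO against WT in B16. No strand passed by limma (0 rose and 0 fell, beside 0 and 0 of all features). At an unadjusted p under 0.05, 0 strands were higher and 1 lower, beside 15 and 27 of 1246 features. The median change was -0.19, beside -0.05 over all features. The smallest p was at 8-qC5-8200.1 sense, with 6.59 and 14.9 in Tdg KO libraries and 25.4 and 20.5 in WT libraries, a change of -1.19 ± 0.45 (adjusted p = 1.00). The next were 2-qE5-4.1 antisense, at 1.47 ± 0.62, and 10-qA3-143.2 sense, at -2.08 ± 0.94, where both Tdg KO libraries were at 0. The difference between the effect of Tdg loss with and without p53 was tested as an interaction, in which 0 strands passed in either direction by limma, with 70 above and 0 below 0 at an unadjusted p under 0.05. Over all 1246 features 0 passed in either direction, with 427 above and 10 below 0 at an unadjusted p under 0.05. Its smallest adjusted p was 0.0757, at 6-qF3-1063.3 sense (3.98 ± 0.82), 5-qG2-2301.1 antisense (3.56 ± 0.74) and 9-qC-10667.1 sense (3.77 ± 0.88). Without DKO replicate 1 the interaction called 6 strands, all above 0, beside 5.26% of all features, and without DKO replicate 2 it called 53, all above 0, beside 23.6%.

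In KP, Tdg KO was compared with WT over 117 locus strands of 64 loci among 984 features. No strand passed by limma (0 rose and 0 fell, beside 0 and 0 of all features). At an unadjusted p under 0.05 there were 0 strands, beside 44 of 984 features higher and 4 lower. The median change was 0.55, beside 0.75 over all features. For 32 strands all 3 Tdg KO values lay above both WT values, against 19.2% of all features, and for 0 strands they lay below, against 0.915%. The smallest p was at 5-qG2-2301.1 antisense, with 8.29, 4.10 and 2.35 in Tdg KO libraries and 1.45 and 1.16 in WT libraries, a change of 1.66 ± 0.73 (adjusted p = 0.777). The same strand was the one rise that held in all 4 scalings in B16. Next were 10-qA3-143.2 antisense (2.44 ± 1.07), with 2.89, 0.893 and 0.492 in Tdg KO and 0.393 and 0 in WT libraries, and 1-qE2.3-2.1 sense (3.17 ± 1.47), with 3.43, 3.61 and 10.5 in Tdg KO and 3.20 and 0 in WT libraries. The smallest length that fits the values of 1-qE2.3-2.1 is only 122 bases, shorter than a fragment. Its true length may be a multiple of that, and its number of fragments was not estimated.

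The Tdg KO libraries of KP did not move together. Replicate 1 was the lowest of the 5 libraries on the 4 strands that followed IAP sense coverage: 10-qC1-2617.2 antisense had 1.75, 8.35 and 9.42 in Tdg KO libraries and 4.25 and 8.73 in WT libraries. For 13-qA5-464.3 sense the values were 1.53, 9.90 and 10.4 in Tdg KO and 4.83 and 10.6 in WT libraries. Replicate 1 was also the lowest at 10-qB5.1-5404.1 antisense, with 0.737, 27.6 and 17.3 in Tdg KO libraries and 8.49 and 16.2 in WT libraries. On 14 of the 15 B1-like strands it was the highest of the 5 instead, as at 10-qC1-12816.1 sense with 2.83, 1.02 and 0.397 in Tdg KO and 0.576 and 0.732 in WT libraries. In that library 7SL took 99.1% of all coverage, against 93.3% and 95.1% in the other Tdg KO libraries and 97.9% and 96.8% in WT libraries. The part of this in the locus values was not tested.

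Levels differed between the lines, which were deposited as separate tables with no common scaling, so these are values side by side and not a test. Apart from 8-qC5-8200.1 sense, the 4 strands that followed IAP sense coverage had the largest B16 over KP ratios of WT means: 14-qA3-284.2 sense averaged 602 in B16 WT and 10.7 in KP WT libraries, and 10-qC1-2617.1 antisense averaged 552 and 7.18. By contrast, 7-qD2-40.1 sense averaged 75.3 in B16 WT and 37.2 in KP WT libraries. Signal in B16 only was seen at 8-qC5-8200.1 sense, with 31.4 and 44.3 in DKO, 6.59 and 14.9 in Tdg KO, 24.8 and 17.8 in Trp53 KO, and 25.4 and 20.5 in WT libraries of B16, and 0 in all 5 KP libraries. At 4957 bases, a count of 0 allows a coverage of up to 0.181 in a library, taken as 3 fragments and for counting error only. Its closest repeat was the IAP long terminal repeat IAPLTR1_Mm sense (r = 0.979). After 8-qC5-8200, the best covered of the loci with signal in B16 only were 8-qA2-343, with a mean of 0.388, and 7-qF3-246, with a mean of 0.373.

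The reverse was seen at 17-qA3.3-27363.1, a locus named outside the selection rule after its values were seen. Its sense strand had 2.37 and 0.870 in DKO, 0.598 and 0.473 in Tdg KO, 0.245 and 0.310 in Trp53 KO, and 0.382 and 0.674 in WT libraries of B16. In KP it had 3.69, 4.77 and 11.2 in Tdg KO libraries and 3.30 and 5.70 in WT libraries. Every B16 value lay below every KP value. The antisense strand went the other way, with 0.482 to 2.47 in the B16 libraries and 0.0667 to 0.351 in the KP libraries.

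**Figure D5:**
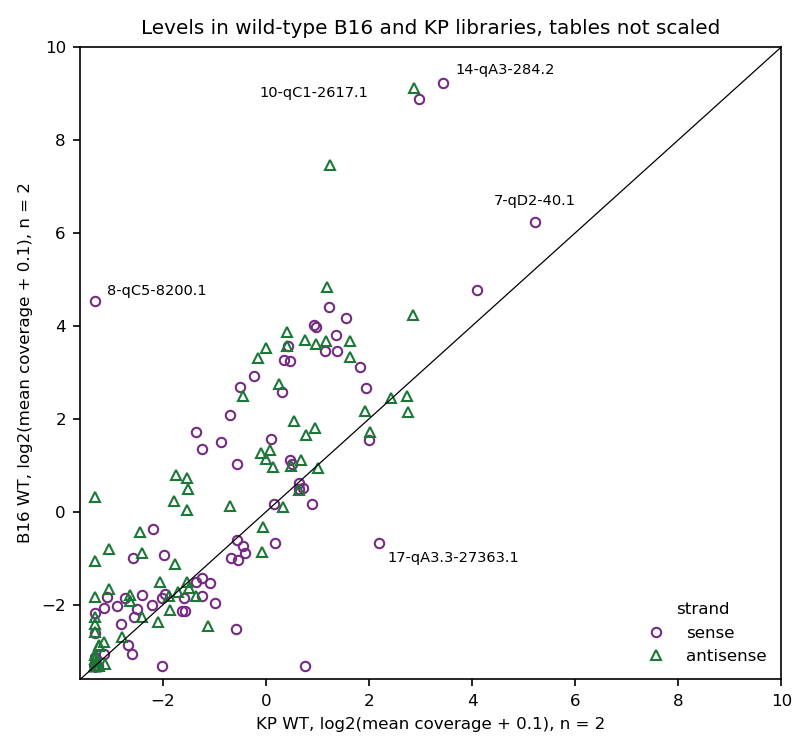
Mean coverage of each locus strand in WT libraries of B16 (y axis) and KP (x axis), as log2(mean coverage + 0.1), n = 2 libraries each; circles are sense and triangles antisense strands, and the line marks equal values. The 4 strands that followed IAP sense coverage and 8-qC5-8200.1 sense lie farthest above the line, and 17-qA3.3-27363.1 sense lies below it.

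Isoforms of 1 locus were mostly covered alike. Of 78 locus strands with several tested isoforms in B16, 50 had mean levels within 1.5-fold of each other, 20 differed by over 2-fold and 8 by over 10-fold. The widest were 13-qA5-464 antisense, where isoforms averaged from 0.112 to 9.77 (87.3-fold), and 13-qA5-208 sense, from 0.212 to 16.8 (79.2-fold). In DKO against Trp53 KO, every tested isoform rose for 32 of the 78, no isoform was called for 38, some but not all rose for 6, and a fall was called for 2. Of all features, 29.5% rose and 1.52% fell. The matching counts for other loci with several isoforms are not given. For 0 of the 78 did isoforms move in opposite directions.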

How the data were processed

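Directional RNA-seq of 13 libraries was analysed from 2 deposited tables, 1 per cell line. Per the labels' protocols, total RNA was extracted with TRIzol and depleted of ribosomal RNA. HISAT2, DESeq2 and the build mm10 are listed in the submitters' processing notes, without versions or roles; the deposited names give piPipes mean signal. The deposited values are signal, read here as mean coverage per base, with the authors' antisense signal written as negative numbers, whose sign was dropped. Values were whole multiples of a step in 660 of the 661 elements that had at least 6 nonzero values (99.8%), so the signal was not scaled to library size; numbers of reads are unknown. Of 895 rows with signal, 6 exact duplicates were removed, and 0 columns were left unmapped.

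Features averaging 0.1 or more in their table (1246 in B16, 984 in KP) were fitted as log2(coverage + 0.1) with limma 3.58.1 (lmFit, contrasts, eBayes with trend) in R 4.3.3, all groups of a table together and with no covariate, leaving 4 and 3 residual degrees of freedom. Tests were two-sided with Benjamini-Hochberg adjustment over all features at 0.05. Tables and figures were made with Python 3.11.15, pandas 2.3.3, numpy 2.4.6 and matplotlib 3.10.9. Profiles were compared as Pearson's r of log2(coverage + 0.1) across 13 libraries. The fit was first tested on simulated data with known changes. For DKO against Trp53 KO it recovered 0% of 2-fold, 27.5% of 4-fold and 57% of 8-fold changes. There, 8.3% of calls were false at 4-fold and 5.8% at 8-fold. In KP it recovered 0% of 2-fold and 4-fold changes and 37% of 8-fold changes, with 10.8% of calls false at 8-fold. A lack of calls in KP is thus no evidence that changes of that size were absent.

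A limit for a value of 0 was set at 3 fragments of 299 bases per library. Loci were named as the 8 best covered per table, up to 10 rises and 10 falls per comparison, the 3 smallest p where none passed, up to 3 of the largest strand biases each way, and the 3 best covered of those found in all libraries or in 1 table only. The members and lists were chosen with earlier results of these data known. Alternatives were the scaling, pseudocount, filter, isoform summary, robust and blocked fits, and leaving out each library.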

Additional observations from a re-analysis of the deposited data

Results flagged for a closer look

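At 6 of 109 locus strands tested in both lines, all Tdg KO values lay on the opposite side of the WT values in B16 and in KP. The share of all features that did so is not given, so the count cannot be read as particular to the loci. The difference between the lines was not tested, and no change passed in either line (limma). In B16 the log2 change of Tdg KO against WT was -0.21 for 10-qB5.1-221.1 sense, against 0.99 in KP. It was -0.50 in B16 and 0.91 in KP for 2-qG3-1029.2 sense, -0.43 and 0.77 for 7-qD1-16444.1 sense, and -0.41 and 0.81 for 9-qA5.3-1495.2 sense. For 13-qA5-208.1 antisense it was -0.35 in B16 and 1.01 in KP, and for 3-qA3-2052.1 antisense -0.65 and 0.24.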

How the results depend on the processing

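For DKO against Trp53 KO, 54 strands rose and 3 fell. The rises numbered 3 with median-ratio scaling, 1 with median centring and 1 with quantile normalization, beside 6.18%, 2.09% and 3.05% of all features. With a filter at a mean coverage of 1 they numbered 30 (38.0% of strands, beside 36.1% of all features). In a fit of only the 2 groups they numbered 0, beside 0 of all features. The falls numbered 5, 11 and 6 under the 3 scalings, beside 3.93%, 8.83% and 4.17% of all features. They numbered 0 in the fit of only the 2 groups, beside 0 of all features. Leaving out 1 library gave 0 to 69 rises and 0 to 4 falls. For DKO against Tdg KO, 23 rose with a pseudocount of 1, 2 fell with quantile normalization, and leaving out 1 library gave 0 to 57 rises. For DKO against WT, where 1 rose, 6 rose with a pseudocount of 1, 3 fell with quantile normalization, and 0 rose under each of the 3 scalings, a filter at 1, the mean over isoforms, robust eBayes, the replicate block and only the 2 groups; leaving out 1 library gave 0 to 50. The interaction gave 0 to 53 rises when 1 library was left out and 0 under the other alternatives run. Trp53 KO against WT in B16, and Tdg KO against WT in B16 and in KP, gave 0 calls among the locus strands under every alternative run. With 1 library left in a group, it was assumed to vary like the other groups. Of all features, 12.5% rose against Tdg KO and 6.1% against WT with a pseudocount of 1. With quantile normalization, 0.642% of all features fell in DKO against Tdg KO and 1.12% against WT. The causes were not tested.

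Same-numbered libraries correlated at -0.02 to 0.18 in their deviations from the group means, so the numbers were not taken as pairs. With the replicate block, DKO against Trp53 KO gave 42 rises and 4 falls, beside 23.9% and 1.93% of all features.

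Directions turned for values that did not pass. In DKO against Trp53 KO, 13-qA5-208.1 antisense (0.55) was -0.90, -1.50 and -0.85 under median-ratio, median-centred and quantile scaling, the second with an adjusted p of 0.0499 by limma, and 8-qC5-8200.1 sense (0.83) was -0.63, -1.22 and -0.52. In KP, 7-qD2-40.1 sense (0.06) was -0.64, -0.63 and -0.30, and -0.54 with the replicate block; 5-qF-4633.2 sense (0.08) was -0.62, -0.62 and -0.52; and 18-qE1-1295.1 antisense (0.52) was -0.17, -0.17 and -0.13. Leaving out 1 KP library gave -0.54 to 0.90 for 7-qD2-40.1 sense, -0.16 to 0.32 for 5-qF-4633.2 sense, -1.63 to 0.89 for 10-qB5.1-5404.1 antisense, -0.73 to 0.39 for 14-qA3-284.2 sense, -0.96 to 0.49 for 13-qA5-464.3 sense and -0.74 to 0.53 for 10-qC1-2617.2 antisense. Depth limits the loci under a mean of 0.1, of which 14 in B16 and 15 in KP were not tested.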
